A study of Mus musculus with 75 samples.

Results

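Foxp3 and 8 further genes that mark regulatory T cells (Tregs) were followed through cultures of mouse CD4 effector T cells with and without Tregs. The 9 genes, of 53465 gene identifiers in each count table, were Foxp3, Ikzf2, Ctla4, Tnfrsf18, Tnfrsf4, Tigit, Nrp1, Gpr83 and Nt5e, taken by their identifiers, and all 9 passed the filter on low counts in both assays. Their change with Tregs was compared between the RNA of the whole culture and the RNA bound to ribosomes, which bears on how much RNA of the added Tregs each kind of RNA holds.

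The cells were CD4+CD25- effector T cells from spleen and lymph nodes. In the RiboTag assay they came from 5 mice bred from the strain B6N.129-Rpl22tm1.1Psam/J, which carries a taggable Rpl22, with the Cre strain B6.Cg-Tg(Cd4-cre)1Cwi/BfluJ. In such a cross Cre under Cd4 control switches on a hemagglutinin-tagged form of this ribosomal protein. Cells of each RiboTag mouse were rested in IL7, stimulated by beads coated with anti-CD3/CD28, or stimulated in the presence of Tregs, and total RNA (Input) and RNA precipitated with the tagged ribosomes (IP) were sequenced from each of these 3 cultures, in 30 libraries. In the SPEED assay the cells came from 4 mice labelled B6.SJL-PtprcaPepcb/BoyJ (the series' design text says C57/B6). Their cultures were untreated, stimulated with beads, stimulated with Tregs, or stimulated with beads and given HHT for 10 min before harvest (not from mouse 4), and Input, polysomal (Pol) and subpolysomal (SubPol) sucrose fractions were sequenced, in 44 libraries used here. The added Tregs were sorted as CD4+YFP+ cells, per the treatment protocol, and that text names Foxp3YFP-Cre mice, which are not the tagged cross. Control cultures held as many effector cells as there were cells in the coculture, and for some of them effector cells sorted as CD4+YFP-CD45.1+ were used. The number of Tregs, the time in culture and whether Tregs were taken out before lysis are not stated there, and no library of Tregs alone was analysed.

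Tregs restrain the activation of other T cells, and Foxp3 is the transcription factor that defines their lineage. Ikzf2 encodes Helios, a zinc finger factor of Tregs that arise in the thymus. Ctla4 and Tigit are inhibitory receptors, Tnfrsf18 (GITR) and Tnfrsf4 (OX40) are costimulatory receptors of the TNF receptor family, Nrp1 is a semaphorin and growth factor coreceptor, Gpr83 is a G protein-coupled receptor, and Nt5e (CD73) is a surface enzyme that makes adenosine from AMP. Several of these, above all Ctla4, Tnfrsf18, Tnfrsf4 and Tigit, are also made by effector T cells once these are activated, and Nt5e is also found on resting T cells.

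By symbol, all 9 genes were found in the RefSeq annotation of GRCm38.p6, each as a protein-coding gene. Foxp3 (ENSMUSG00000039521) lies on chromosome X at 7579676 to 7595243, and Nt5e (ENSMUSG00000032420) on chromosome 9 at 88327609 to 88372089. Gpr83 (ENSMUSG00000031932) lies on chromosome 9 at 14859880 to 14870789. Tnfrsf4 (ENSMUSG00000029075) and Tnfrsf18 (ENSMUSG00000041954) lie on chromosome 4, at 156013595 to 156016613 and 156026322 to 156028894. Ctla4 (ENSMUSG00000026011) and Ikzf2 (ENSMUSG00000025997) lie on chromosome 1, at 60909025 to 60915832 and 69531207 to 69687351, Tigit (ENSMUSG00000071552) on chromosome 16 at 43626137 to 43665125 and Nrp1 (ENSMUSG00000025810) on chromosome 8 at 128358591 to 128505476.

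The 250 bases before the annotated start of Foxp3 (chrX:7579426-7579675, plus strand) and Nt5e (chr9:88327359-88327608, plus strand) are shown because these are the 2 members that passed the test for a rise with Tregs in RiboTag Input. Both are from RefSeq (GRCm38.p6), and capitals mark matches to a short list of motifs, searched on both strands: the NFAT core GGAAA, AP-1 TGANTCA, STAT TTCNNNGAA, the RUNX core TGTGGT and the forkhead core TGTTTAC.
Foxp3: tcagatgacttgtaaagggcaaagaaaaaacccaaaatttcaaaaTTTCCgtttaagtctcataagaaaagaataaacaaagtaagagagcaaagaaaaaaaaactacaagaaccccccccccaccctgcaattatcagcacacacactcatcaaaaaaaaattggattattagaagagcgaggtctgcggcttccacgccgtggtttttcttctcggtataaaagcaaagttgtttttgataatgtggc
Nt5e: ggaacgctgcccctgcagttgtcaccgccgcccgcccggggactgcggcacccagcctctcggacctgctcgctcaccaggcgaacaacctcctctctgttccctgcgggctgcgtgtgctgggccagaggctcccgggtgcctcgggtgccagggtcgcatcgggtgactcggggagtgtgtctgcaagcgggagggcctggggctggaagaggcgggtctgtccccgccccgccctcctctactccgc
The Foxp3 window shown holds 1 NFAT core and 37.6% G and C (a further RefSeq window of Foxp3, which does not end at the gene start, holds 1 NFAT core and 1 STAT match), and the Nt5e window holds none of the 5 motifs and 72.0% G and C. Of 32851 windows of this length, 55.6% hold an NFAT core, 6.75% an AP-1, 7.02% a STAT, 14.0% a RUNX and 3.17% a forkhead match, and the median G and C content is 52.4%.

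Total counts ran from 1658481 to 2824875 per library in RiboTag and from 1566501 to 4621104 in SPEED. Levels are counts scaled to the library total (CPM) with TMM factors applied. Foxp3 had 1 to 228 reads per library in RiboTag and 5 to 248 in SPEED. Ikzf2, with at most 24 and 44 reads and none in 2 and 3 libraries, was close to the limit of this depth. IL7-rested libraries of mice 1 and 2 stood apart from those of mice 3 to 5 in both Input and IP, and values that involve rested cells are given with and without them where leaving them out moved a value or a call. The split was not confined to rested cells. Deviations from group means over all genes tested were correlated between Input and IP. Between mice 1 or 2 and mice 3 to 5, r was -0.244 to -0.146 in rested and -0.235 to -0.0559 in stimulated cultures. With Tregs it was -0.224 to -0.00863. Between different mice within either set, r was -0.0266 to 0.251. The rested libraries also enter the spread of each RiboTag fit over all groups. Libraries of 1 mouse number come from the same mouse, per the labels.

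In RiboTag Input, Foxp3 was about 5-fold higher in cultures with Tregs than in stimulated cultures. Its level in stimulated cultures was 11.5, 13.3, 0.482, 15.3 and 12.02 CPM in mice 1 to 5, and with Tregs it was 59.0, 75.6, 16.3, 50.9 and 52.5 CPM. The level was higher with Tregs in 5 of 5 mice, and the groups did not overlap, although mouse 3 was lowest in both. The means were 10.53 ± 5.81 and 50.8 ± 21.6 CPM (SD, n = 5), a log2 fold change of 2.25 (95% interval 0.97 to 3.53), and the change passed the test (edgeR quasi-likelihood test, Benjamini-Hochberg adjusted p = 0.0322). The call was lost without mouse 1, 4 or 5 (adjusted p = 0.149, 0.0702 and 0.119, edgeR) and with no filter on low counts (0.127), while the log2 fold change stayed between 2.15 and 2.43 in all 10 alternatives run.

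In the IP of the same cultures Foxp3 was higher with Tregs by nearly the same amount. Its level in stimulated cultures was 14.6, 19.3, 10.7, 4.75 and 23.4 CPM in mice 1 to 5, and with Tregs it was 58.7, 80.5, 26.8, 43.9 and 64.8 CPM. Here too the level was higher with Tregs in 5 of 5 mice with no overlap, and mouse 3 was again lowest among cultures with Tregs. The log2 fold change was 1.91 (95% interval 0.67 to 3.14) and just missed the threshold (edgeR adjusted p = 0.0566). It passed with the mouse as a block, at 1.88 (edgeR adjusted p = 0.00467), when only the compared groups were fitted (0.00349) and without mouse 3 (0.0432), and the adjusted p ranged from 0.00349 to 0.190 over 10 alternatives.

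The rise in IP followed the rise in Input mouse by mouse. The rise with Tregs, in CPM, was 47.5 in Input and 44.1 in IP of mouse 1, 62.3 and 61.2 in mouse 2, 15.8 and 16.1 in mouse 3, 35.5 and 39.2 in mouse 4, and 40.5 and 41.4 in mouse 5. The mouse with the smallest rise in Input thus had the smallest in IP, and the mouse with the largest had the largest. The mean rise was 40.3 ± 17.0 CPM in Input and 40.4 ± 16.1 CPM in IP (SD, n = 5), so that the IP rise was 100.2% of the Input rise, with 92.9% to 110.2% in single mice. Each CPM is relative to its own library, so this percentage is not a share of RNA recovered in the IP. Stimulated Foxp3 rested on 1 to 40 reads in Input and 10 to 58 in IP. Its ratio of IP to Input there was 1.27, 1.44, 22.2, 0.310 and 1.95 in mice 1 to 5. With Tregs Foxp3 rested on 45 to 220 reads in Input and 77 to 228 in IP. The counting error of the rises was not estimated, so the closeness of the Input and IP rises is not a measure of precision. The IP rise was larger in 3 of 5 mice, by 0.0827 ± 2.58 CPM (SD, n = 5) on average, with an exact sign-flip p of 0.875 (two-sided; the smallest p that 5 mice allow is 2 of 32 sign patterns, so this test cannot pass 0.05). On the log2 scale the change of IP over Input with Tregs was -0.34 (95% interval -2.10 to 1.41, edgeR adjusted p = 1.00), and with the culture as a block, which pairs the IP and Input of a culture, it was -0.33 (95% interval -1.34 to 0.68, edgeR adjusted p = 0.999).

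**Figure D1:**
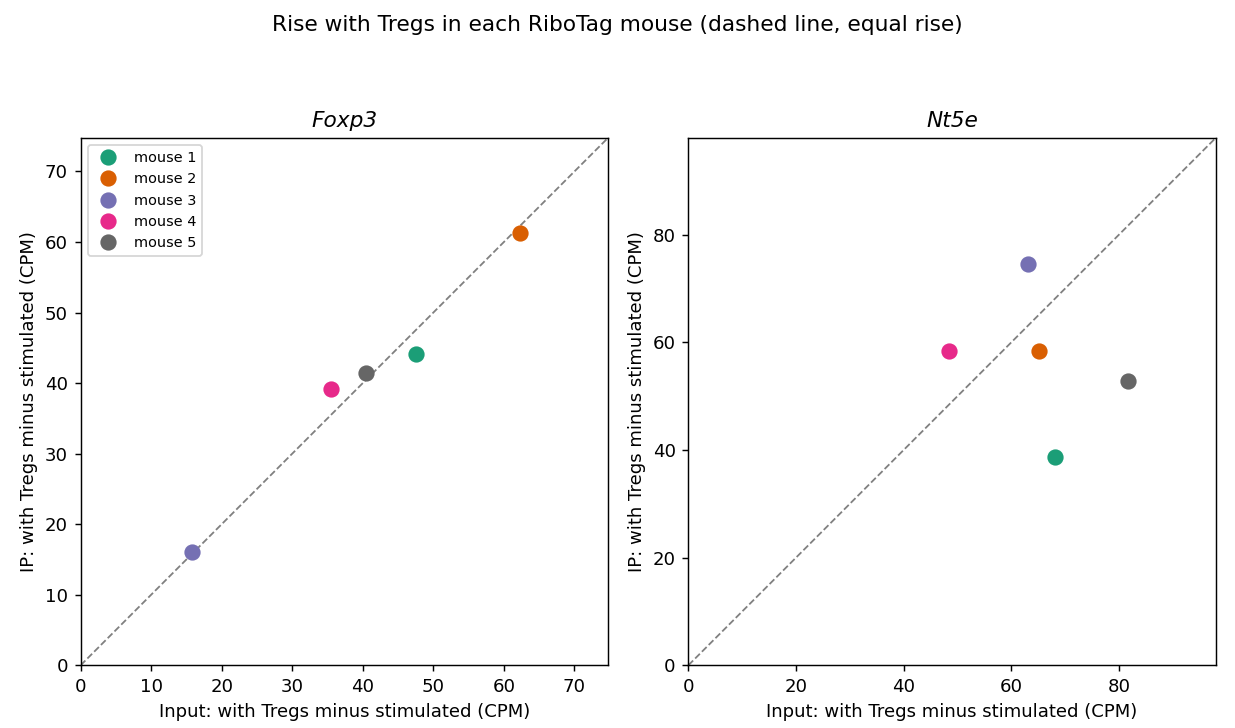
Rise with Tregs in each RiboTag mouse, as CPM with Tregs minus CPM of the stimulated culture, in Input (x axis) and IP (y axis). Points are mice and the dashed line marks an equal rise. For Foxp3 all 5 points lie near the line, from 15.8 to 62.3 CPM in Input, whereas for Nt5e they scatter on both sides of it.

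Nt5e also rose with Tregs in both kinds of RiboTag RNA. In Input it was at 13.9, 26.2, 32.3, 11.1 and 23.3 CPM in stimulated cultures of mice 1 to 5 and at 81.9, 91.4, 95.3, 59.5 and 105 CPM with Tregs. In IP it was at 14.6, 13.6, 16.9, 9.97 and 15.3 CPM and at 53.3, 72.0, 91.4, 68.5 and 68.2 CPM with Tregs. It was higher with Tregs in 5 of 5 mice in either RNA, with no overlap. The log2 fold change was 2.02 in Input (95% interval 1.61 to 2.43, edgeR adjusted p = 9.07e-08) and 2.32 in IP (1.89 to 2.75, edgeR adjusted p = 1.06e-08). Nt5e was higher in IL7-rested than in stimulated cultures, at 221 ± 22.6 CPM in rested Input (SD, n = 5), so that cultures with Tregs lay between stimulated and rested cells. The IP rise was 86.7% of the Input rise on average, from 56.9% to 120.8% in single mice, and 2 of 5 mice had the larger rise in IP (exact sign-flip p = 0.438, two-sided).

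The other 7 members did not pass the test with Tregs in RiboTag. In all, 2 of 9 members were higher and none lower in Input, where 4.53% of all genes tested were called (2.76% higher and 1.77% lower), and 1 of 9 was higher in IP, where 5.69% were (3.45% higher and 2.24% lower). The median log2 fold change of the members was 0.04 in Input and 0.20 in IP, beside 0.00499 and 0.00218 over all genes tested. Tnfrsf18 was at 219 ± 10.8 CPM in stimulated Input and 215 ± 26.3 CPM with Tregs (SD, n = 5), and the 95% interval of its log2 fold change was -0.22 to 0.17. Tnfrsf4 was at 316 ± 28.1 and 290 ± 22.3 CPM (interval -0.41 to 0.16) and Ctla4 at 241 ± 71.0 and 247 ± 38.9 CPM (interval -0.39 to 0.48). These 3 receptors were thus abundant in stimulated cultures without Tregs. Their intervals end below the 2.25 measured for Foxp3, but a log2 fold change depends on the starting level. From these higher levels, a rise in CPM equal to that of Foxp3 would be a far smaller log2 change. The interval of Ctla4 leaves room for a rise of that size, and those of Tnfrsf18 and Tnfrsf4 end below it. The log2 comparison thus does not show how much Treg RNA was present.

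Ikzf2, Tigit, Nrp1 and Gpr83 had wider intervals than Ctla4, Tnfrsf18 and Tnfrsf4 in Input. Ikzf2 was higher with Tregs in Input in 5 of 5 mice, at 0 to 2.30 CPM in stimulated cultures and 1.81 to 5.84 CPM with Tregs, but did not pass (log2 fold change 1.58, edgeR adjusted p = 0.18), and in IP its log2 fold change was 0.25. Tigit was lower in Input in 5 of 5 mice, at 5.52 to 15.3 CPM against 3.00 to 12.3 CPM with Tregs (log2 fold change -0.50, edgeR adjusted p = 0.564). Nrp1 was at 19.2 to 26.2 CPM in stimulated Input and 10.99 to 21.8 CPM with Tregs (-0.55, adjusted p = 0.401, edgeR). Gpr83 was at 63.6 to 103 CPM and 78.7 to 142 CPM (0.42, adjusted p = 0.809, edgeR). Its interval was wide (-0.99 to 1.82), although it had 121 to 246 reads in stimulated Input and 177 to 413 with Tregs. The fit behind this interval also held the rested libraries, where Gpr83 in Input ran from 14.8 to 284 CPM. Over 10 alternatives its adjusted p ranged from 0.157 to 0.921. For each of these 4 genes the Input values with and without Tregs overlapped.

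**Figure D2:**
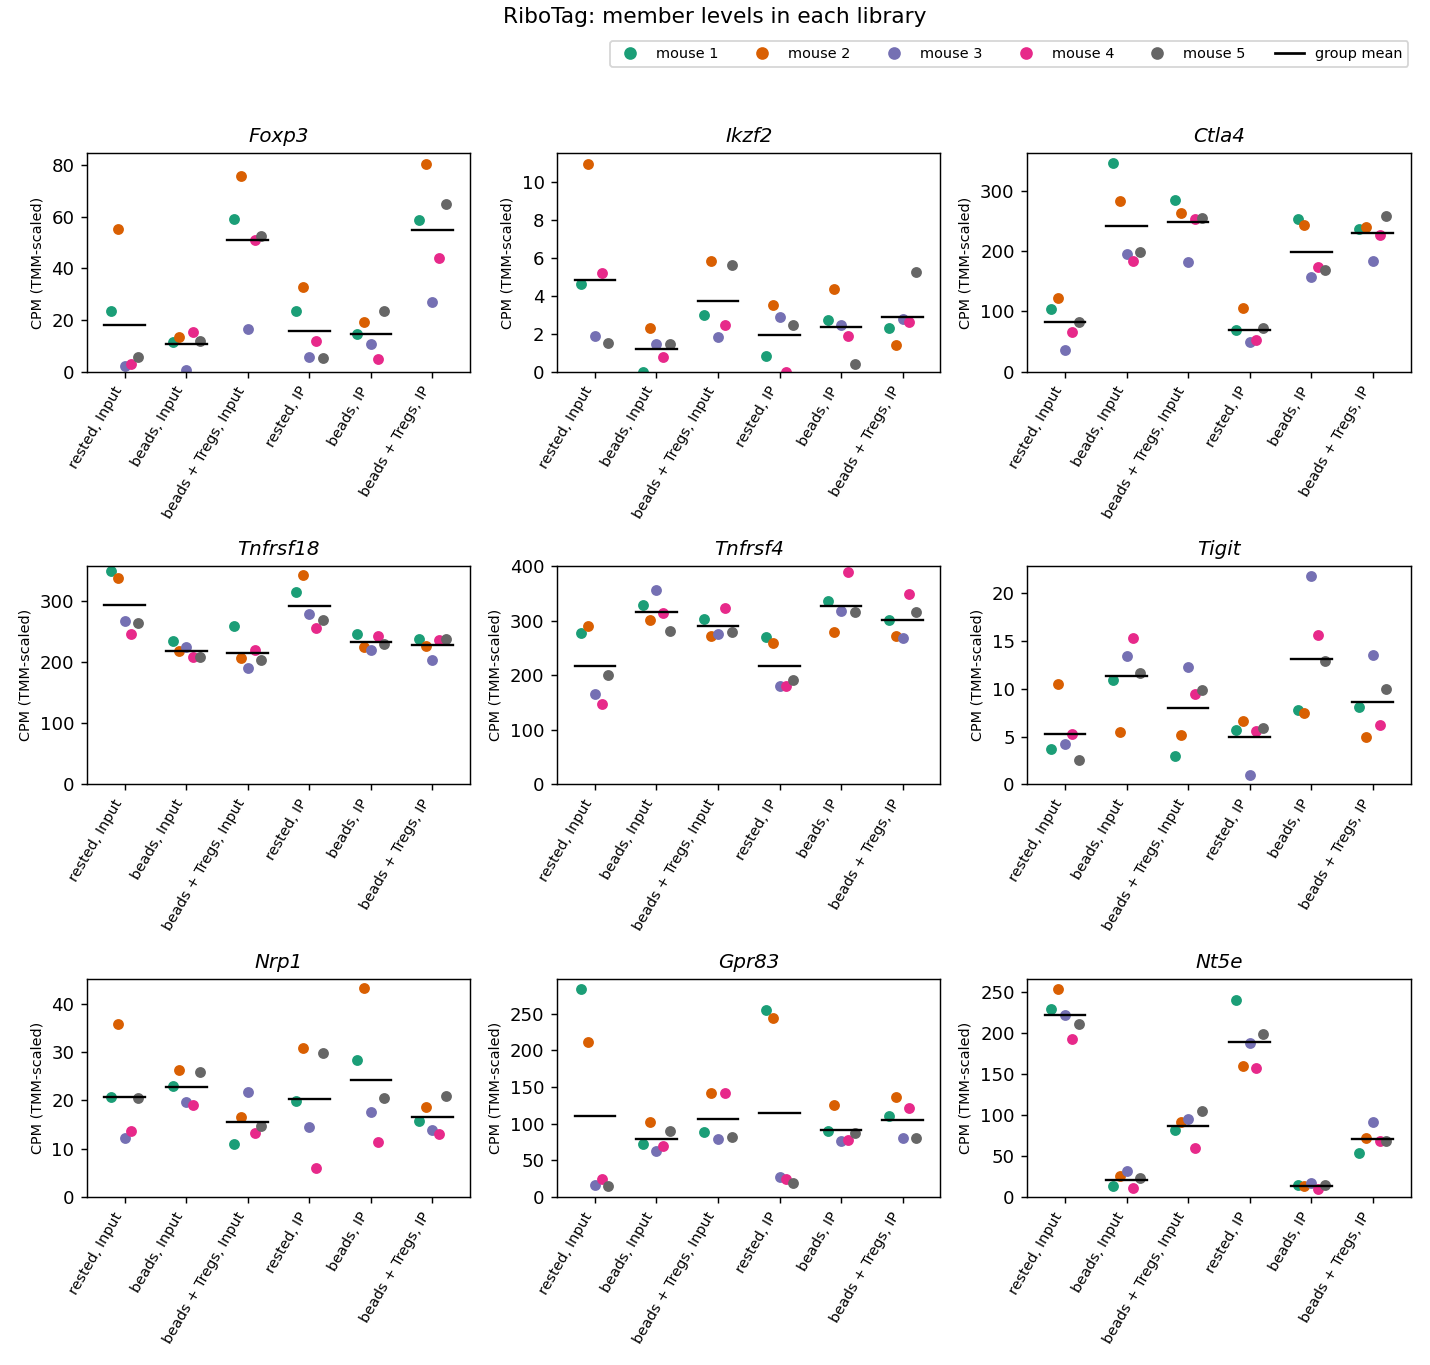
Level of each of the 9 genes in every RiboTag library, in TMM-scaled CPM, by culture (rested, beads, beads with Tregs) and RNA (Input, IP). Points are libraries coloured by mouse and black lines are group means (n = 5). Foxp3 in both kinds of RNA with Tregs lies above all stimulated libraries, and rested Gpr83 of mice 1 and 2 lies far above that of mice 3 to 5.

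No member passed the test of IP over Input in cultures with Tregs, where 1.85% of all genes were called, in stimulated cultures (0.977%) or in rested cultures (6.89%), by edgeR or by DESeq2. At an unadjusted p under 0.05 there were 0, 1 and 1 members, beside 1801, 1462 and 2373 of all 10751 genes tested. The members were Nt5e in stimulated cultures (log2 -0.60) and Ikzf2 in rested cultures (log2 -1.33). With Tregs, the log2 ratio of IP to Input was 0.11 for Foxp3 (95% interval -1.03 to 1.25) and -0.29 for Nt5e (-0.66 to 0.07), from means of 54.9 and 50.8 CPM and of 70.7 and 86.6 CPM. The change of that ratio with Tregs passed for 0 of 9 members by edgeR and by DESeq2, as it did for 0% of all genes. At an unadjusted p under 0.05 there were 0 members, beside 125 of all 10751 genes tested. With the culture as a block the Foxp3 ratio with Tregs was 0.16 (95% interval -0.46 to 0.78, edgeR adjusted p = 0.776), and the ratio of IP to Input CPM was 0.996, 1.06, 1.64, 0.863 and 1.24 in mice 1 to 5. Foxp3 was thus higher in IP in 3 of 5 mice, and neither depletion nor enrichment was shown. In rested cultures the log2 ratio for Foxp3 was -0.17 over 5 mice and 1.12 with mice 3 to 5 alone (edgeR adjusted p = 0.915 and 0.410), so that its direction depended on mice 1 and 2. Misses of the threshold do not show equal levels for any member. In bulk RNA, fewer Tregs and less RNA per Treg cannot be told apart, and Foxp3 of Tregs carried into the IP and Foxp3 of tagged effector cells cannot be told apart in these counts either.

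The SPEED assay gave a different picture for Foxp3. Its Input level in stimulated cultures was 34.6, 25.6, 45.5 and 51.7 CPM in mice 1 to 4, and with Tregs it was 39.8, 32.1, 22.8 and 32.5 CPM. It was higher with Tregs in mice 1 and 2 and lower in mice 3 and 4, with overlapping groups. The log2 fold change was -0.30 in Input (95% interval -1.03 to 0.42, edgeR adjusted p = 0.765), -0.77 in Pol (-1.51 to -0.03, adjusted p = 0.599) and -0.71 in SubPol (-1.48 to 0.06, adjusted p = 0.452). Foxp3 was lower with Tregs in 4 of 4 mice in Pol, from 56.5, 34.9, 61.0 and 29.9 CPM to 38.0, 25.5, 28.6 and 14.3 CPM, but this did not pass. Stimulated cultures without Tregs thus held 39.4 ± 11.6 CPM of Foxp3 in SPEED Input (SD, n = 4) and 10.53 ± 5.81 CPM in RiboTag Input (SD, n = 5), and cultures with Tregs 31.8 ± 6.99 and 50.8 ± 21.6 CPM.

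The difference between the assays in the Foxp3 change was tested in a joint fit of 29 Input libraries, chosen after the values of both assays were seen. It was 2.55 on the log2 scale (95% interval 0.84 to 4.26) and did not pass after adjustment over all genes by edgeR (adjusted p = 0.432, and 0.129 with the mouse as a block). None of the other 8 members passed either, where 0.127% of all genes did. The assays differ in mice and in preparation, and these cannot be told apart.

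Nt5e was the member that rose with Tregs in all 3 kinds of SPEED RNA as well. In Input it went from 27.0, 53.4, 30.7 and 43.8 CPM to 82.1, 91.5, 99.01 and 76.1 CPM in mice 1 to 4, and it was higher with Tregs in 4 of 4 mice in Input, Pol and SubPol, with no overlap. The log2 fold change was 1.16 in Input (95% interval 0.63 to 1.69, edgeR adjusted p = 0.0252), 1.61 in Pol (1.07 to 2.16, adjusted p = 0.00121) and 1.42 in SubPol (0.87 to 1.97, adjusted p = 0.00547). Leaving out any 1 mouse ended the call in Input (edgeR adjusted p = 0.0708 to 0.325), as did mouse 1 or 4 in Pol (0.0656 and 0.0684) and mouse 1 in SubPol (0.127), with the log2 fold change at 0.99 or more throughout.

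Gpr83, the G protein-coupled receptor, fell with Tregs in SPEED. In Input it went from 231.7, 180, 170 and 216 CPM in mice 1 to 4 to 132, 101, 139 and 113 CPM with Tregs, in Pol from 320, 246, 237 and 290 CPM to 169, 118, 140 and 149 CPM, and in SubPol from 172, 158, 161 and 138 CPM to 129, 65.3, 99.6 and 97.3 CPM. It was lower in 4 of 4 mice in each, with no overlap. The log2 fold change was -0.72 in Input (edgeR adjusted p = 0.0161), -0.92 in Pol (adjusted p = 0.00121) and -0.69 in SubPol (adjusted p = 0.0199). The call was lost in Input without mouse 1, 2 or 4 (edgeR adjusted p = 0.100, 0.132 and 0.101), in Pol without mouse 4 (0.0684), and in SubPol without mouse 2, 3 or 4 (0.267, 0.0928 and 0.0647) or with only the compared groups fitted (0.102). Its change in RiboTag Input was 0.42, and the difference between the assays did not pass (1.14, 95% interval -0.28 to 2.55, edgeR adjusted p = 0.873).

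In each kind of SPEED RNA, 1 of 9 members was higher and 1 lower, Nt5e and Gpr83, where 0.587% of all genes were called in Input (0.459% higher and 0.129% lower), 0.282% in Pol (0.177% and 0.105%) and 1.15% in SubPol (0.821% and 0.33%). The median over the members was -0.30, -0.17 and -0.16, beside 0.0243, -0.0195 and -0.00997 over all genes. Ctla4, Tnfrsf18 and Tnfrsf4 had lower means with Tregs in all 3, without passing. In Input these were 277 ± 35.6 and 231 ± 25.1 CPM for Ctla4, 231 ± 26.7 and 178 ± 18.8 CPM for Tnfrsf18, and 346 ± 45.3 and 282 ± 41.6 CPM for Tnfrsf4 (SD, n = 4), lower in 4 of 4 mice for each.

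**Figure D3:**
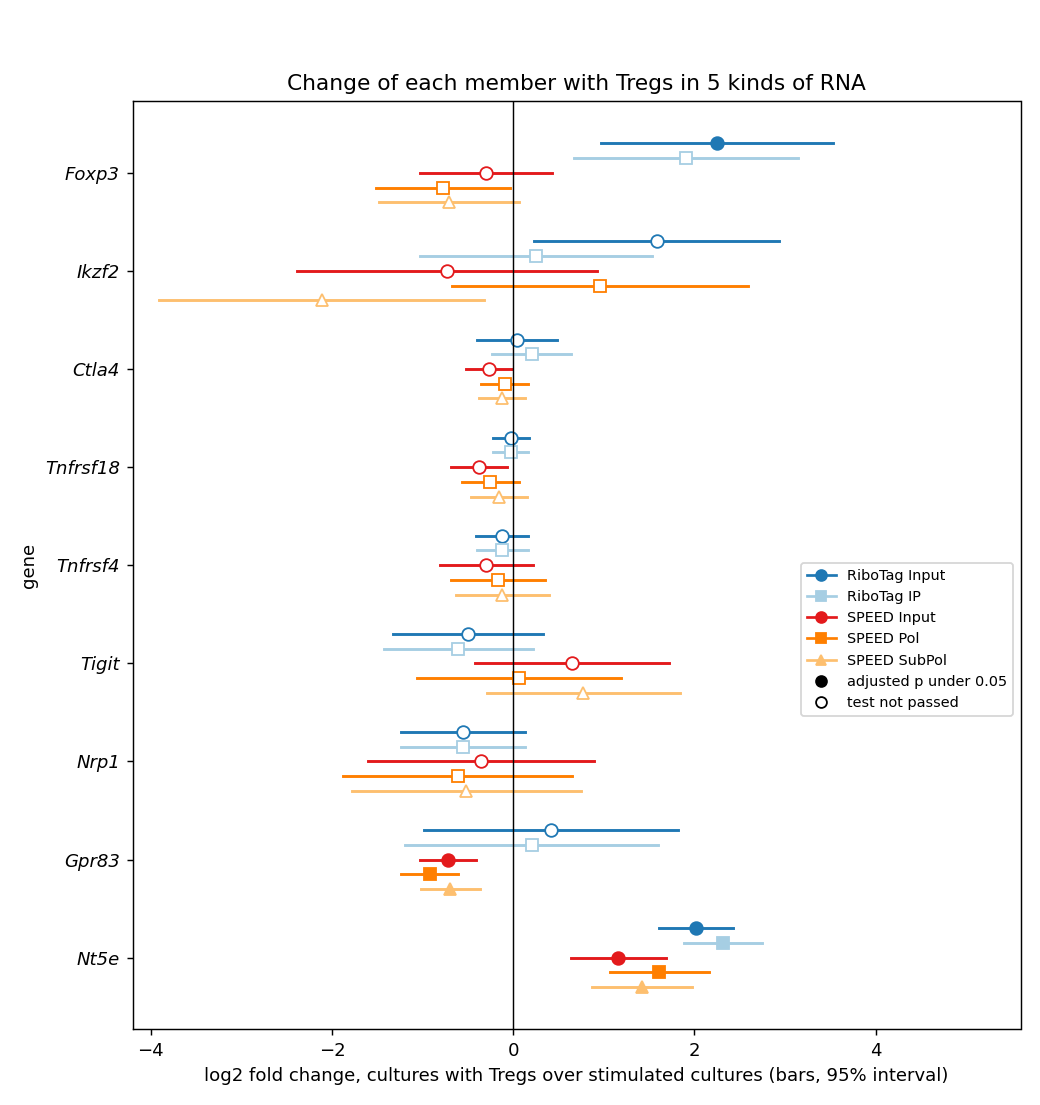
Log2 fold change of each of the 9 genes in cultures with Tregs over stimulated cultures, with 95% intervals from edgeR, in RiboTag Input and IP and in SPEED Input, Pol and SubPol. Filled symbols passed an adjusted p of 0.05. Nt5e passed in all 5, Foxp3 in RiboTag Input at 2.25, and Gpr83 in the 3 SPEED fractions at -0.69 to -0.92.

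The members also changed with stimulation alone, at shares near those of all genes. In RiboTag Input 3 of 9 members rose and 3 fell against rested cells, where 63.3% of all genes were called (32% higher and 31.4% lower), and in IP 3 rose and 2 fell, where 64.7% were (33.6% and 31.1%). Ctla4 in Input was at 81.8 ± 33.5 CPM in rested and 241 ± 71.0 CPM in stimulated cells (SD, n = 5) and rose by 1.55 on the log2 scale (edgeR adjusted p = 5.82e-07), while Tnfrsf4 rose by 0.55 and Tigit by 1.10. Nt5e fell to 21.4 ± 8.77 CPM (SD, n = 5), a change of -3.37 (edgeR adjusted p = 1.59e-15), and Ikzf2 changed by -1.94 and Tnfrsf18 by -0.42. The Tigit call in Input was lost without mouse 1, 3, 4 or 5 (edgeR adjusted p = 0.0684, 0.0596, 0.120 and 0.120) and that in IP without mouse 3 (0.0876). With mice 3 to 5 alone the log2 fold changes in Input were 1.68 for Ctla4, 0.92 for Tnfrsf4, 1.75 for Tigit, -3.22 for Nt5e and -0.25 for Tnfrsf18, each of which passed, while the Ikzf2 call was lost (-1.19, edgeR adjusted p = 0.237).

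In SPEED Input 5 of 9 members rose and 1 fell against untreated cells, where 54.4% of all genes were called (27.9% higher and 26.5% lower). Foxp3 rose from 7.58, 9.16, 28.1 and 10.99 CPM in untreated cells of mice 1 to 4 to the stimulated levels given above, in 4 of 4 mice (log2 fold change 1.50, 95% interval 0.74 to 2.26, edgeR adjusted p = 0.000863). Foxp3 thus rose with stimulation in cultures to which no Tregs were added, and mouse 3 was high among untreated cells. Gpr83 rose by 1.91, Tnfrsf4 by 2.13, Ctla4 by 1.09 and Tnfrsf18 by 0.81 on the log2 scale, each in 4 of 4 mice with no overlap. Tigit was at 15.2 ± 5.58 CPM in untreated and 4.30 ± 2.20 CPM in stimulated cells (SD, n = 4) and fell by 1.78 on the log2 scale (edgeR adjusted p = 0.00432). Without mouse 3 it no longer passed (adjusted p = 0.0696). Nt5e, at -0.38, passed only without mouse 2 (-0.77, adjusted p = 0.0257). Tnfrsf18 and Tigit went opposite ways in the 2 assays, whose unstimulated cultures differ (IL7-rested in RiboTag, untreated in SPEED), and the difference was not tested.

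Rested RiboTag cells of mice 1 and 2 held far more Gpr83 and Foxp3 than those of mice 3 to 5. Rested Gpr83 was at 284, 212, 16.6, 24.2 and 14.8 CPM in Input of mice 1 to 5 and at 255, 244, 27.7, 24.9 and 19.1 CPM in IP. Rested Foxp3 was at 23.6, 55.0, 2.37, 2.85 and 5.63 CPM in Input and at 23.4, 32.7, 5.83, 12.03 and 5.37 CPM in IP. For both genes the same 2 mice were high in both kinds of RNA, and the levels of these genes in stimulated cultures did not split in this way. Over all 5 mice Gpr83 did not pass against rested cells in Input (log2 fold change -0.47, edgeR adjusted p = 0.565), whereas with mice 3 to 5 alone it was higher in stimulated cells by 2.03 in Input (edgeR adjusted p = 1.02e-06) and 1.76 in IP (adjusted p = 4.04e-06). For Foxp3 the change in Input was -0.76 over 5 mice (edgeR adjusted p = 0.318) and 1.44 with mice 3 to 5 alone (adjusted p = 0.117), and in IP it was -0.13 (0.868) and 0.74 (0.349).

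Between SPEED fractions, Foxp3 and Gpr83 lay toward polysomes and Ctla4 away from them. In stimulated cells Foxp3 was at 56.5, 34.9, 61.0 and 29.9 CPM in Pol and 34.2, 20.7, 29.6 and 9.49 CPM in SubPol of mice 1 to 4, higher in Pol in every mouse although the groups overlapped. Its log2 ratio of Pol to SubPol was 0.95 (95% interval 0.20 to 1.69, edgeR adjusted p = 0.0328), which no longer passed without mouse 2, 3 or 4 (adjusted p = 0.0765, 0.0853 and 0.0957). The ratio was 0.79 for Gpr83 and -0.63 for Ctla4, and no other member passed, where 45.4% of all genes were called. In cultures with Tregs the log2 ratio was 0.88 for Foxp3 (edgeR adjusted p = 0.056, and 0.0441 with the mouse and 0.0280 with the culture as a block), 0.56 for Gpr83, -0.61 for Ctla4 and 2.48 for Ikzf2 (adjusted p = 0.0206), where 44.2% were called. Tigit, at -1.13 (edgeR adjusted p = 0.0819), also passed with the culture as a block, at -1.15 (edgeR adjusted p = 0.0353).

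Ikzf2 with Tregs was at 3.03, 2.91, 9.66 and 5.85 CPM in Pol and 0.695, 0.298, 1.94 and 0.593 CPM in SubPol of mice 1 to 4, which did not overlap but rest on few reads, and the call was lost without mouse 1, 2 or 4 (edgeR adjusted p = 0.0719, 0.0874 and 0.0619). Tregs did not change the ratio of Pol to SubPol detectably for any member (0 of 9 by edgeR and by DESeq2), where 0% of all genes passed. At an unadjusted p under 0.05 there was 1 member, beside 328 of all 12428 genes tested. The 1 was Ikzf2 (log2 3.07), and for Foxp3 the change was -0.06 (95% interval -1.14 to 1.01). With HHT the ratio of Pol to SubPol was higher for 1 of 9 members, Ctla4 (log2 change 0.52, edgeR adjusted p = 0.0451), where 23% of all genes were called. The call was lost without any 1 mouse (adjusted p = 0.0568 to 0.245). Mean Ctla4 was lower with HHT in SubPol and higher in Pol. Each fraction is scaled to its own library, so the change is relative to other genes. Whether Ctla4 RNA moved onto polysomes was not tested.

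**Figure D4:**
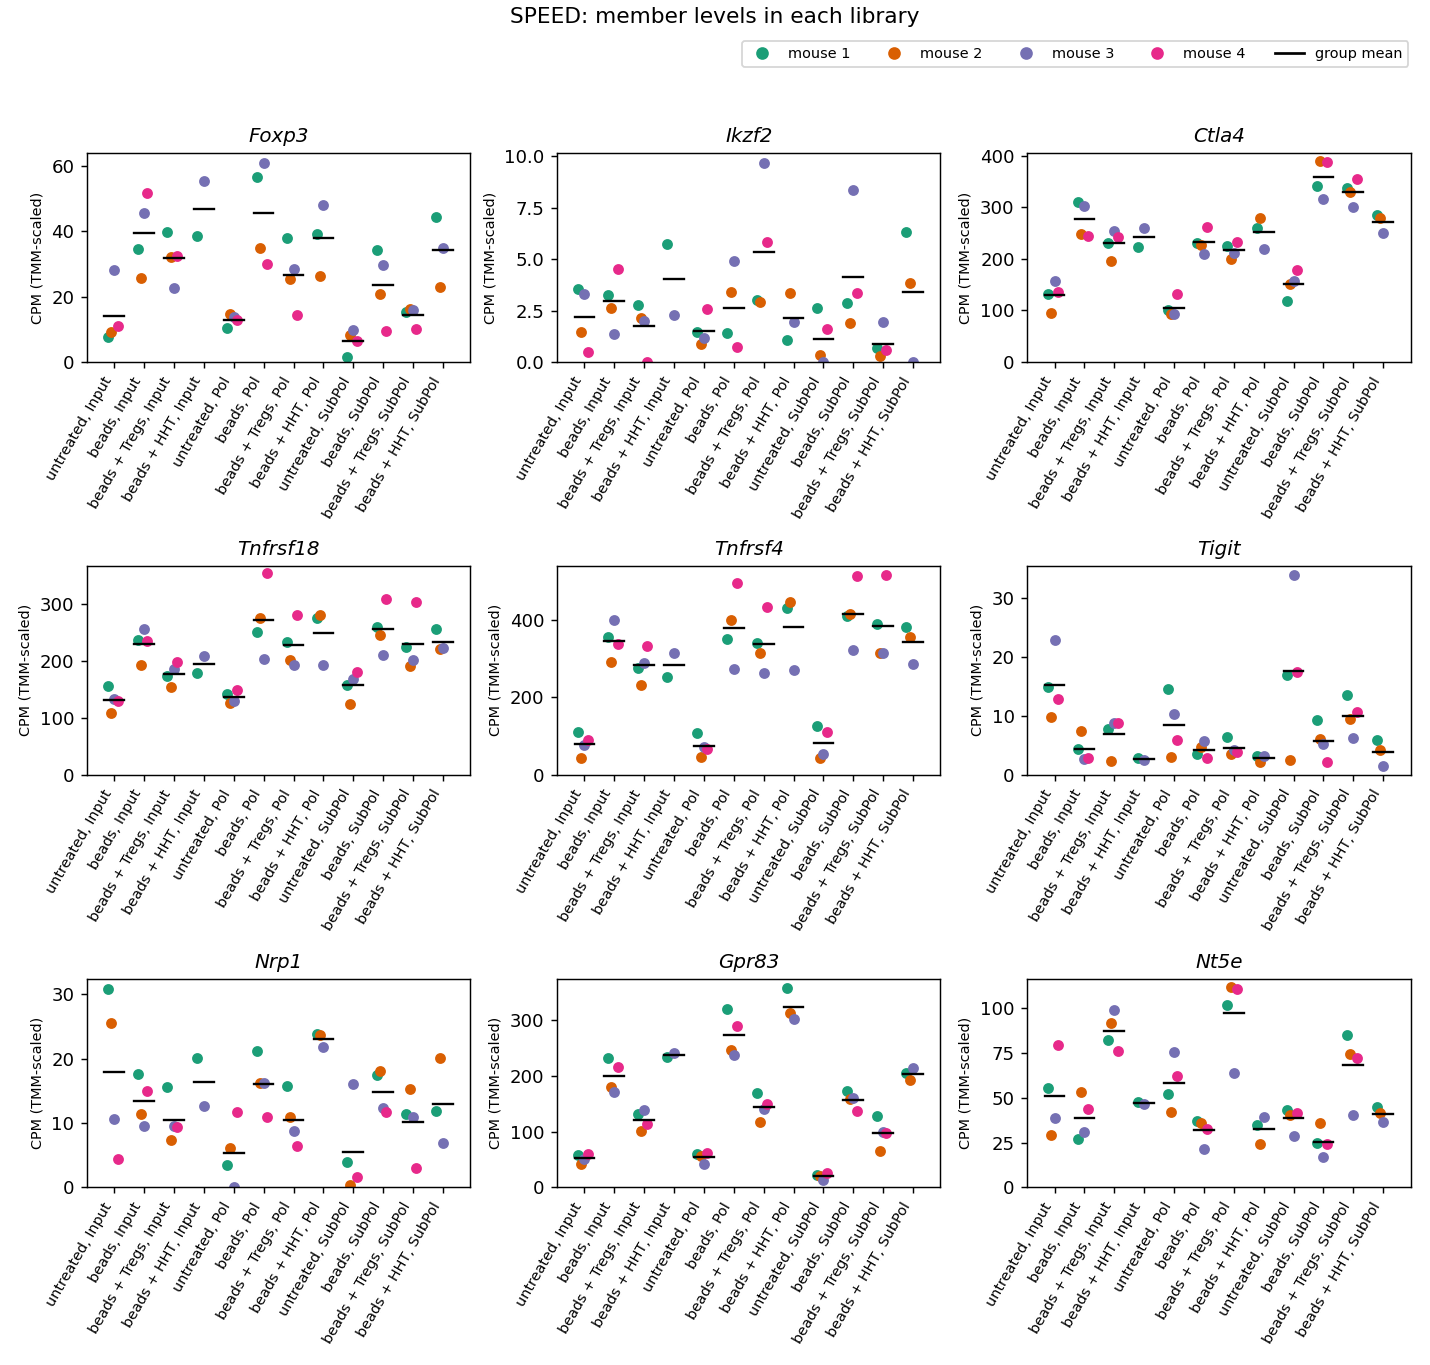
Level of each of the 9 genes in every SPEED library, in TMM-scaled CPM, by culture (untreated, beads, beads with Tregs, beads with HHT) and RNA (Input, Pol, SubPol). Points are libraries coloured by mouse and black lines are group means (n = 4, or 2 to 3 with HHT). Gpr83 with Tregs lies below all stimulated libraries of the same RNA, and Nt5e above them.

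In order of group means, RiboTag Foxp3 was highest in IP and Input with Tregs (54.9 ± 20.5 and 50.8 ± 21.6 CPM), followed by rested Input and IP (17.9 ± 22.5 and 15.9 ± 11.9 CPM) and stimulated IP and Input (14.5 ± 7.27 and 10.53 ± 5.81 CPM; SD, n = 5). Neighbours within the upper pair and within the lower 4 groups differed by less than their SD. With mice 3 to 5 alone the rested means were 3.62 ± 1.76 CPM in Input and 7.74 ± 3.72 CPM in IP (SD, n = 3). In SPEED Input the order was stimulated (39.4 ± 11.6 CPM), with Tregs (31.8 ± 6.99 CPM) and untreated (14.0 ± 9.52 CPM; SD, n = 4), and the values of the first pair overlapped. Cultures given HHT are not placed in this order, since Foxp3 was at 38.5 and 55.4 CPM in 2 libraries and at 18.5 CPM, scaled by total count alone, in the library that the fits left out.

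The genes whose log2 CPM followed Foxp3 most closely over the 30 RiboTag libraries were ENSMUSG00000056737 (Pearson r = 0.863), ENSMUSG00000034634 (r = 0.784), ENSMUSG00000032315 (r = 0.769), ENSMUSG00000038058 (r = 0.752) and ENSMUSG00000058216 (r = 0.743), among 10750 genes. Over the 44 SPEED libraries their r was 0.658, 0.557, 0.177, -0.0174 and -0.255, so that only the first pair kept an r above 0.5. Of the other members Gpr83 came nearest, at rank 40 with r = 0.656 in RiboTag and 0.805 in SPEED, and Nt5e had r = 0.0659 and -0.120. These r are descriptions over libraries that share mice, cultures and conditions, and the tables do not pair these identifiers with names.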

How the data were processed

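The authors deposited 1 table of raw whole-number counts per gene for each assay, per the file headers. The submitters' processing notes name GRCm38, HTSeq 0.4.1, Picard 1.134, FastQC 0.11.3 and SAMtools 1.2, and the aligner is not given in the sources used here. Libraries were made with SMART-Seq v4 and NexteraXT kits, per the labels' protocols, so overlapping genes on opposite strands cannot be told apart. Of the RiboTag columns, 16 matched no sample and were not used. Of 2 SPEED libraries with the same title (HHT Input, mouse 1) the main fits used the earlier. No HHT Input library is labelled mouse 2. By library number the later one stands between Input libraries of mouse 2 and mouse 3, and which mouse it came from was not tested.

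Testing was done in edgeR 4.0.16 under R 4.3.3. After filterByExpr (minimum count 10, minimum total 15) 10751 genes were left in RiboTag and 12428 in SPEED, libraries were scaled by TMM, and 1 quasi-likelihood model (robust) was fitted per assay to all its groups. Two-sided p-values were adjusted by Benjamini-Hochberg over all genes tested with a threshold of 0.05, intervals are at 95 percent, and DESeq2 1.42.0 was an alternative. CPM values are relative within a library, so a change in total RNA does not appear, and levels are not compared between genes because no exon lengths were used. Mouse numbers pair the samples, since the labels give the same mouse, and the mouse was a block in an alternative. The mean r of deviations was 0.149 within a mouse and -0.0372 between mice in RiboTag, and 0.0376 and -0.0125 in SPEED. Within a mouse r ran from -0.0293 to 0.416 in RiboTag and from -0.0749 to 0.196 in SPEED. Nothing in the labels says that the cultures of a mouse were repeated, so the replicate is the mouse. The fits were tested on simulated counts, drawn without a shared mouse or culture. Of 100 genes changed 2-fold with Tregs, 69% were recovered in RiboTag Input, 53% for IP over Input and 59% in SPEED Input. Of 100 changed 4-fold, 95%, 83% and 78% were. False calls made up 4.09%, 3.55% and 6.16% of calls.

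Named genes were the 9 members and the genes most like Foxp3. The further Treg, other cell type and pathway lists were not used here, because gene identifiers could not be paired with symbols, so the labelled cell type was not checked against markers other than the members. Members, lists and tests were chosen with earlier results of these data known.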

Additional observations from a re-analysis of the deposited data

Results flagged for a closer look

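In 135 groups of 4 or 5 libraries (9 genes), the highest or lowest value was compared with the others by Dixon's test, which chance alone flags in about 1 in 20 groups, and 6 values stood out. Foxp3 in stimulated RiboTag Input was 0.482 CPM in mouse 3, where the others had 11.5 to 15.3 CPM. Foxp3 in SPEED SubPol with Tregs was 10.1 CPM in mouse 4, where the others had 15.3 to 16.1 CPM. Foxp3 in untreated SPEED Input was 28.1 CPM in mouse 3, where the others had 7.58 to 10.99 CPM. Gpr83 in stimulated RiboTag IP was 126.0 CPM in mouse 2, where the others had 77.0 to 90.1 CPM. Tigit in rested RiboTag IP was 0.972 CPM in mouse 3, where the others had 5.58 to 6.63 CPM. Tigit in SPEED Input with Tregs was 2.37 CPM in mouse 2, where the others had 7.82 to 8.78 CPM.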

How the results depend on the processing

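Of 1544 values of single members under an alternative, 1496 kept their side of the threshold, 37 lost and 9 gained it, and 2 reversed. In 90 of the 1496 the sign changed with neither value past the threshold. Both reversals were Gpr83 against rested cells with mice 3 to 5 alone, at 2.03 in Input and 1.76 in IP. The number of members past the test, 2 in RiboTag Input with Tregs, was 1 with no filter on low counts and 1 to 2 without 1 mouse. The pairing by mouse, used as a block, raised it from 1 to 2 in RiboTag IP with Tregs, as did fitting only the compared groups, and it was 1 to 2 without 1 mouse. In SPEED with Tregs, the 2 members became 0 to 1 in Input, 0 to 2 in Pol and 1 in SubPol without 1 mouse, and 1 in SubPol with only the compared groups. The culture as a block raised the members with a Pol to SubPol ratio in cultures with Tregs from 3 to 5. With HHT, 1 member became 0 with no filter and 0 without any 1 mouse. The Foxp3 rise in IP, as a percentage of the rise in Input, stayed between 98.1% and 102.5% over 7 alternatives. These alternatives rescale the counts or leave out 1 mouse, so that range does not include counting error. Genes past the test with Tregs in RiboTag Input numbered 487, and 843 with the mouse block, 948 with only the compared groups and 192 to 289 without mouse 1, 3, 4 or 5; in SPEED Input 73 became 149 with the block, 257 with DESeq2 and 6 to 41 without 1 mouse. The difference between the assays was chosen after seeing the data. Where a call changed, the cause was not tested. Depth limits Ikzf2 most, at no more than 44 reads in a library.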
